A study of Mus musculus with 4 samples.

Results

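The genes described here carry glucose into muscle, break it down to pyruvate and lactate, and store or release it as glycogen. They are 34 genes, listed by symbol and grouped into 9 steps, out of the 24054 symbols in the count table, and all 34 were found by exact symbol and passed the filter on low counts. They were measured by RNA-seq in soleus muscles of female *mdx* mice (C57BL/10ScSn-DMDmdx/J), which lack dystrophin in every group. The mCDC group (2 libraries) had received mouse cardiosphere-derived cells at passage 5, expanded from the heart of a C57BL/10ScSn/J mouse, by femoral vein infusion once monthly from 8 weeks of age, and was taken at 12 months. The vehicle group (2 libraries) had received the carrier medium, Iscove's Modified Dulbecco's Medium, on the same schedule. The labels do not say whether the 2 libraries of a group came from separate mice, so the p-values measure only the spread between these libraries, which may be technical. The comparison addresses how a year of repeated cell infusion changes the muscle's gene expression.

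Glycolysis turns glucose into pyruvate, with a small yield of ATP that needs no oxygen. Muscle takes glucose up through the transporters GLUT4, which insulin and contraction bring to the cell surface, and GLUT1, which sits there at rest. Pyruvate becomes lactate, or enters the mitochondria through the pyruvate dehydrogenase complex, and glycogen is the fibre's own glucose store. Fast fibres are known for high levels of glycolytic enzymes, and the soleus is known as a slow, oxidative muscle.

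4 members had an unadjusted p under 0.05 in the comparison of mCDC with vehicle muscles, and all 4 were higher in mCDC muscles, against 2.85% of all genes higher and 4.09% lower at that threshold. The set changes with the processing: scaling by total counts left 2 higher (Slc2a1 and Eno1) and 1 lower (Pfkfb1), and leaving out vehicle replicate 2 left Slc2a1 alone. The 4 were Slc2a1 (GLUT1), Eno1 (enolase of most tissues), Pgam1 (phosphoglycerate mutase of most tissues) and Ldha (a lactate dehydrogenase subunit). The 250 bases before the annotated transcription start of each are shown because these are the members with the smallest p and the start region is where the factors that set transcription bind. Where several starts had a window, the most upstream of these windows is shown (Eno1 has 3 listed starts and Ldha 2). The RefSeq span of Ldha begins further upstream, at chr7:46842274, so neither Ldha window lies before its first base. The bases that follow the Eno1, Ldha and Pgam1 windows shown were in none of the GENCODE transcripts compared, whereas those after the downstream Eno1 and Ldha windows and after the Slc2a1 window were in 1. Sequences are from RefSeq (GRCm38.p6, plus strand, 5′ to 3′). Capitals mark the letters ACGTG, the core of the hypoxia response element, and GGGCGG, the GC box, on either strand. CACGTG, an E-box that contains ACGTG, is in capitals as well.
Slc2a1, chr4:119108495-119108744: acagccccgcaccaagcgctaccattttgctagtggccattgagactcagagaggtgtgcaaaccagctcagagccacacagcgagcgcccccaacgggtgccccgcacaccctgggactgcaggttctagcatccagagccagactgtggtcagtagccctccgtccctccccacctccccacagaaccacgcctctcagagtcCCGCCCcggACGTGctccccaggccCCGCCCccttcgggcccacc
Eno1, chr4:150236458-150236707: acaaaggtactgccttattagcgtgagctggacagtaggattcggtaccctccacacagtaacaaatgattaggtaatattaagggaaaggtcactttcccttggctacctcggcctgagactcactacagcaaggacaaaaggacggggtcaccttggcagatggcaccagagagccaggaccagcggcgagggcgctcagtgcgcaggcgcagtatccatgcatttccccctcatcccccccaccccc
Ldha, chr7:46845554-46845803: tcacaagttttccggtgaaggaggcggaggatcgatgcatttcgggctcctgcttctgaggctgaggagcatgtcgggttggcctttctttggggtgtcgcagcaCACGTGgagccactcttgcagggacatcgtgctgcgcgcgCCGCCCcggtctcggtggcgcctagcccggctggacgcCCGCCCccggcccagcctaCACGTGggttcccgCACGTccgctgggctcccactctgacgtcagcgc
Pgam1, chr19:41911621-41911870: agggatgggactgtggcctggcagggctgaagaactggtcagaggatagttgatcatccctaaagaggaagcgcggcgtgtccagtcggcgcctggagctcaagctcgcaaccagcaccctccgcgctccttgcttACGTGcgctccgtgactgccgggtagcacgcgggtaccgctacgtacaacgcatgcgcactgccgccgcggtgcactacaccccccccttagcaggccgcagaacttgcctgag
The Slc2a1 window held 1 ACGTG site and 2 GC boxes. In the Ldha window there were 3 ACGTG sites, of which 2 were CACGTG, and 2 GC boxes. The Pgam1 window held 1 ACGTG site and no GC box, and the Eno1 window shown held none of the letters searched. The other 2 Eno1 windows, which overlap each other, held 2 and 3 GC boxes, and the downstream Ldha window held none.

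RefSeq windows were found for 33 of the 34 members, with 48 windows in all because some genes have several starts. ACGTG was in 19 of the 48 windows (39.6%), belonging to 16 members, against 16.6% of the 32841 windows of all genes. CACGTG was in 6 (12.5%) against 6.02% of all windows. GGGCGG was in 24 (50%) against 32.7%. These are shares of windows that hold the letters, windows of a gene share bases, and no binding was measured.

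Levels are given as CPM, in which each library's counts are scaled to the same total after TMM (trimmed mean of M-values) correction, in the order mCDC replicate 1, mCDC replicate 2, vehicle replicate 1, vehicle replicate 2. The deposited counts summed to between 22481391 and 27187425 per library, and the members took between 3.01% and 3.39% of them. Slow-fibre genes stood high in every library, as the tissue label says (slow myosin Myh7 from 38237 to 47467 CPM). A gene is called where its fold change is over 1.5 and its unadjusted p in edgeR's quasi-likelihood test is under 0.05, the thresholds of the study. In all, 1 of 34 members (2.94%) was called higher in mCDC muscles, against 1.25% of all 13652 genes tested, and 0 of 34 were called lower, against 2.7% of all genes. Calls in either direction made up 3.96% of all genes. No member and none of all genes tested (0%) had a Benjamini-Hochberg adjusted p under 0.05 in edgeR's quasi-likelihood test. With an unadjusted p under 0.05, 4 members were higher and 0 lower, against 2.85% of all genes higher and 4.09% lower. DESeq2 called 1 member higher, against 0.866% of the genes it tested, and 1 lower (Pfkfb1), against 1.49%.

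The members' levels spanned more than 3 orders of magnitude on the log axis of the plot of levels by library. Aldoa and Gapdh together made up between 39.5% and 44.2% of all member CPM in a library. Per kilobase of transcript, the mean level over the 4 libraries ran from 5501 ± 447 CPM per kilobase (SD, n = 4) for Gapdh and 4322 ± 438 for Aldoa down to 3.45 ± 1.48 for Fbp2. Pgam2, Eno3 and Ldhb came next after Aldoa, at 1581, 1123 and 1095 CPM per kilobase. On that scale Slc2a4 (252) stood far above Slc2a1 (8.28), Hk2 (144) above Hk1 (11.1), Eno3 above Eno1 (44.6) and Pgam2 above Pgam1 (16.9). 15 members were among the 200 genes with the highest mean CPM.

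**Figure D1:**
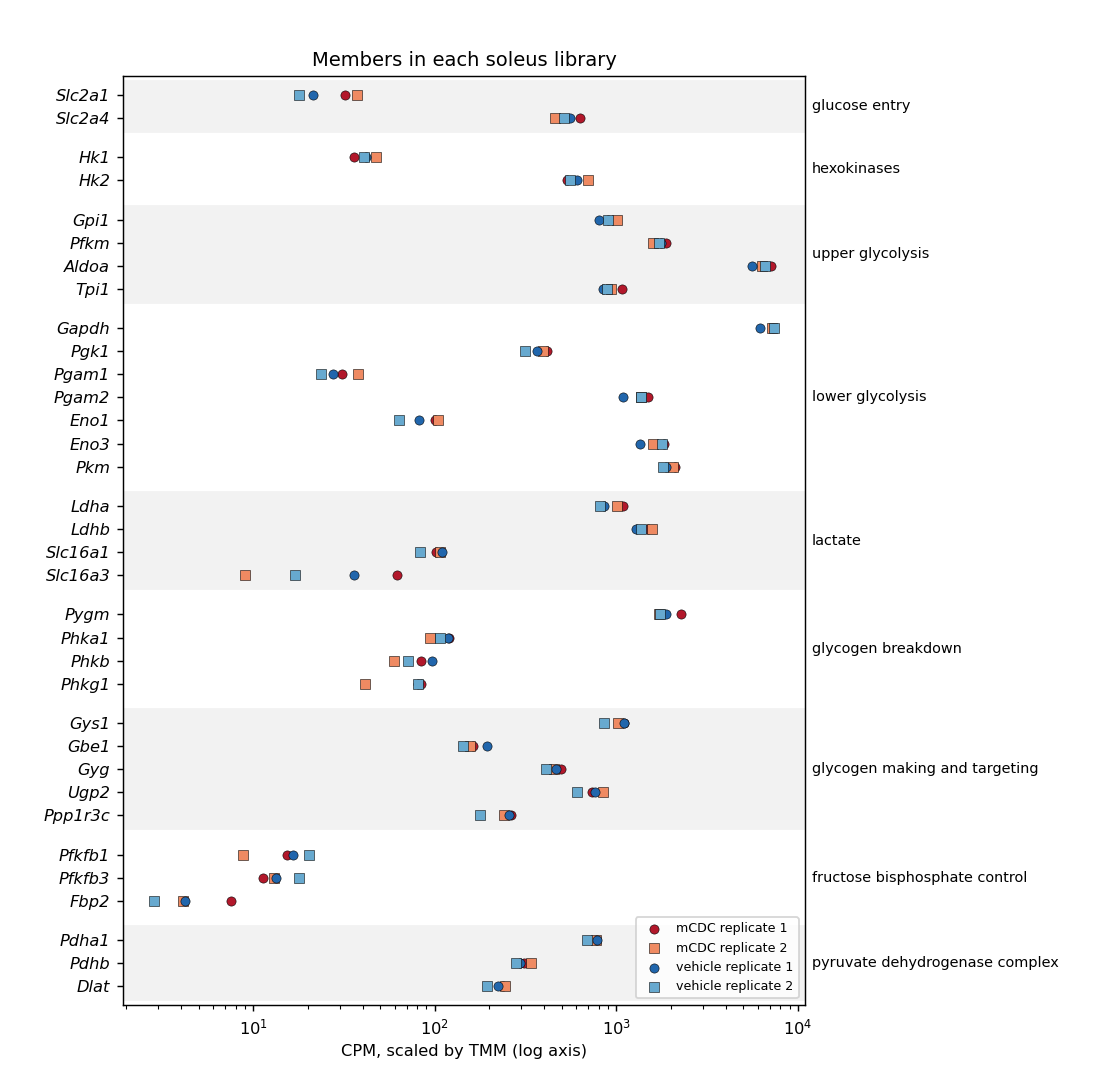
CPM of each of the 34 members in each soleus library, on a log axis, grouped by step; circles are replicate 1 and squares replicate 2, red for mCDC and blue for vehicle. For most members the 4 symbols lie close together; Slc16a3 is spread most, from 8.95 to 61.6 CPM, and the Slc2a1 symbols of the groups do not overlap.

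Among the genes of glucose entry, the level of Slc2a1 was 31.9 and 37.0 CPM in mCDC muscles and 21.2 and 17.8 CPM in vehicle muscles. Both mCDC libraries lay above both vehicle libraries, and the gap between the group means was larger than the range within either group. The fold change was 1.77 (log2 0.82 ± 0.17, SE, n = 2 per group), with an adjusted p of 0.462 in edgeR's quasi-likelihood test. With the same counts DESeq2 gave an adjusted p of 0.0434 and edgeR's likelihood ratio test 0.01468; over all alternatives, leaving out each library included, the adjusted p ran up to 0.906 and the gene stayed called. How many of all genes had adjusted p values as small in DESeq2 and the likelihood ratio test is not given here. The values from those tests therefore do not show whether Slc2a1 stands out from other genes. The log2 fold change of Slc2a1 ran between 0.70 and 0.96 when 1 library was left out. The gene (chr4:119108745-119137330, GRCm38) overlaps an unlisted gene on the opposite strand, Gm12868. None of the 31-base words of Slc2a1 is found in transcripts of another gene, but words were compared as transcribed, without the opposite strand. Slc2a1 is also made by cells other than fibres, such as endothelium, and in whole muscle fewer cells of a type and less RNA per cell cannot be told apart. All 6 endothelial markers were lower in mCDC than in vehicle muscles on average (median log2 -0.53), with a summed level of 122 and 97.8 CPM against 106 and 223 CPM, and 1 of 6 (Flt1) was called lower. Their part in the Slc2a1 result was not tested.

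Slc2a4, which encodes GLUT4, stood at 634, 459, 556 and 515 CPM. The groups overlapped, with mCDC replicate 1 highest and mCDC replicate 2 lowest, and the log2 fold change was 0.030 ± 0.18 (SE). Within a library the log2 ratio of Slc2a4 to Slc2a1 CPM was 4.31 and 3.63 in mCDC muscles and 4.71 and 4.85 in vehicle muscles. The ratio was thus lower by 0.81 on the log2 scale, with no overlap (exact permutation test, two-sided, p = 0.333, the smallest that 2 against 2 libraries allow). With 1 library left out the difference ran from -1.15 (without mCDC replicate 1) to -0.47 (without mCDC replicate 2).

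Hexokinases trap glucose in the cell as a phosphate. Hk1, the form of most tissues, was at 36.1, 47.6, 41.9 and 40.8 CPM, with the vehicle libraries between the mCDC libraries (log2 fold change 0.017 ± 0.17). The muscle form Hk2 was at 536, 702, 607 and 555 CPM, again with both vehicle libraries between the mCDC libraries (0.090 ± 0.17). Both hexokinases were highest in mCDC replicate 2 and lowest in mCDC replicate 1. Their log2 ratio Hk2/Hk1 therefore varied little, at 3.89 and 3.88 against 3.86 and 3.76 (difference 0.075; exact permutation test, two-sided, p = 0.333).

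In upper glycolysis none of the 4 genes was called, and their median log2 fold change was 0.15. Gpi1, which turns glucose phosphate into fructose phosphate, was at 903, 1003, 803 and 902 CPM, and although the groups did not overlap, mCDC replicate 1 and vehicle replicate 2 differed by under 1 CPM. Pfkm, the muscle phosphofructokinase that commits sugar to glycolysis, was at 1877, 1597, 1767 and 1722 CPM, with both vehicle libraries between the mCDC libraries and a log2 fold change of -0.0063 ± 0.16. Aldoa, the muscle aldolase, was at 7150, 6350, 5583 and 6597 CPM, and its groups overlapped (0.15 ± 0.20). Tpi1, which interconverts the triose phosphates, was at 1069 and 934 against 843 and 885 CPM, without overlap (log2 fold change 0.21 ± 0.15, adjusted p = 0.7683 in edgeR's quasi-likelihood test).

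In lower glycolysis all 7 genes had a log2 fold change above 0 under each scaling tried, with a median of 0.21, and 0 of 7 were called. Without vehicle replicate 1, Gapdh (-0.026) and Eno3 (-0.057) fell below 0. In 4 of them (Pgk1, Pgam1, Eno1 and Pkm) both mCDC libraries lay above both vehicle libraries, as they did for 19.2% of all genes tested. Eno1 showed the largest difference of the step. Its level was 100.6 and 104 CPM in mCDC muscles and 82.0 and 63.5 CPM in vehicle muscles. The difference on the log2 scale was 0.49 ± 0.16, with an adjusted p of 0.6428 in edgeR's quasi-likelihood test. Of the 31-base words of Eno1, 53.5% are shared with transcripts of other genes, and the table also lists its near-copy Eno1b. The sum of Eno1 and Eno1b was 145 and 175 CPM against 125 and 119.6 CPM (log2 ratio of the means 0.38), still without overlap. Without vehicle replicate 1, Eno1 was called, at 0.69, and without vehicle replicate 2 it was at 0.32 and its unadjusted p was no longer under 0.05.

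Pgam1 stood at 30.7 and 37.9 CPM in mCDC muscles and 27.6 and 23.5 CPM in vehicle muscles. Its log2 fold change was 0.42 ± 0.17, with an adjusted p of 0.7135 in edgeR's quasi-likelihood test, and 42.1% of its words are shared with other genes. Without mCDC replicate 2 (0.26) or vehicle replicate 2 (0.31) its unadjusted p was no longer under 0.05. Pgk1, which makes the first ATP of the pathway, was at 413 and 397 against 365 and 314 CPM (0.25 ± 0.14). Pkm, the pyruvate kinase of muscle, was at 2107 and 2064 against 1883 and 1798 CPM (0.18 ± 0.15). These sets did not overlap either, although the differences were small.

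The other 3 genes of the step, the muscle forms Eno3 and Pgam2 and the shared enzyme Gapdh, overlapped between groups. Eno3, the enolase of mature muscle, was at 1833, 1595, 1343 and 1788 CPM (0.13 ± 0.19). Pgam2, the muscle mutase, was at 1488, 1365, 1093 and 1366 CPM (0.21 ± 0.17). Gapdh was at 7278, 7190, 6158 and 7387 CPM (0.095 ± 0.20). Vehicle replicate 1 was the lowest library for all 3, and vehicle replicate 2 the highest for Gapdh. The log2 ratio Eno3/Eno1 was 4.19 and 3.93 against 4.03 and 4.81 (difference -0.36), and Pgam2/Pgam1 was 5.60 and 5.17 against 5.30 and 5.86 (difference -0.20). Both ratios overlapped between groups (exact permutation test, two-sided, p = 0.667 for each, in a design that cannot go below 0.333).

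**Figure D2:**
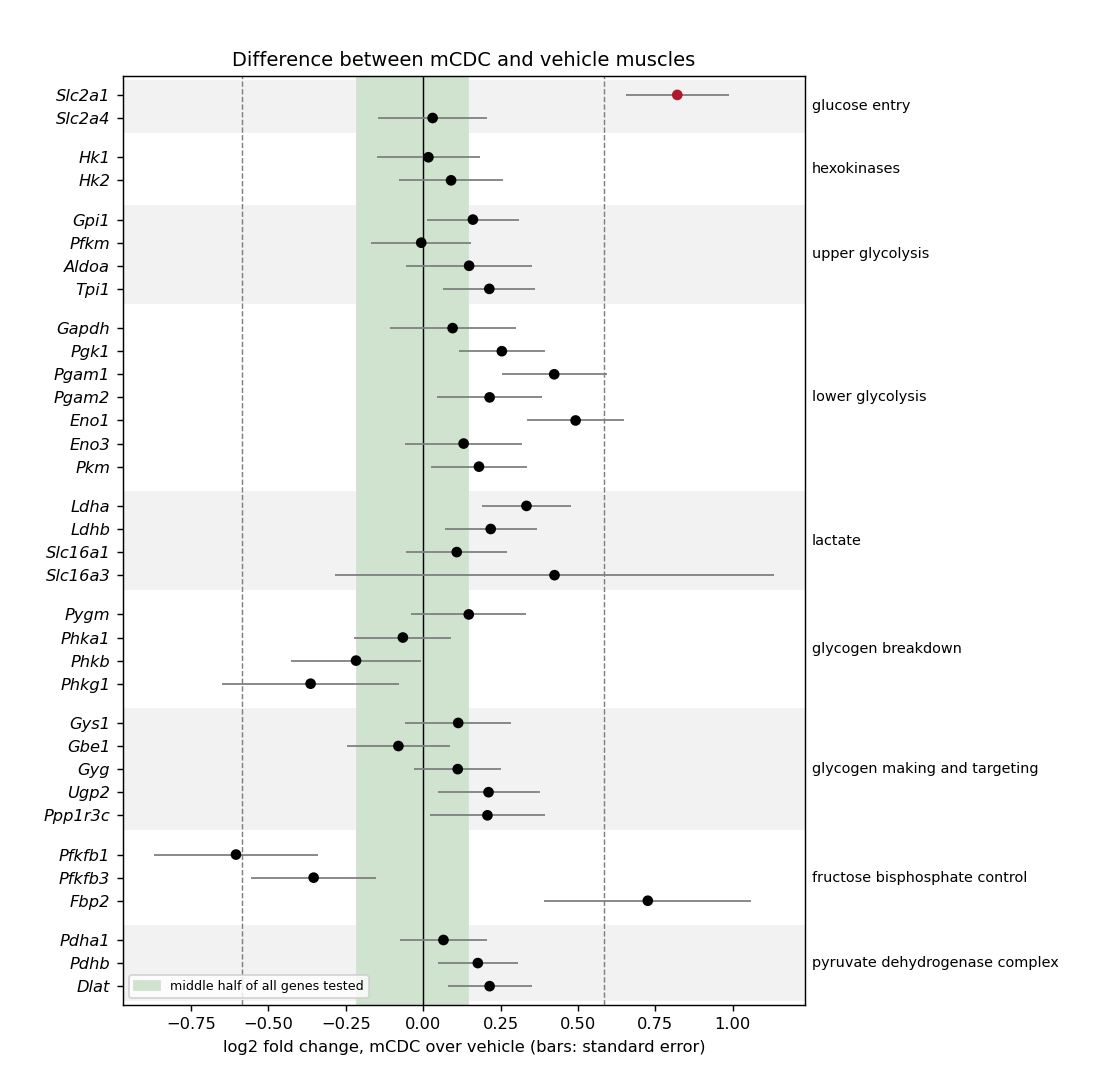
Log2 fold change of each member, mCDC over vehicle, from edgeR; bars are 1 standard error, dashed lines mark 1.5-fold, the green band runs between the quartiles of all genes tested, and the called gene is red. Slc2a1 is the member called, at 0.82; all 7 lower glycolysis genes lie right of 0, Fbp2 has a wide bar at 0.73, and 12 members lie inside the band.

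At the lactate step, lactate dehydrogenase interconverts pyruvate and lactate, Ldha favouring lactate and Ldhb prevailing in oxidative tissue. Ldha was at 1092 and 1008 CPM in mCDC muscles and 858 and 808 CPM in vehicle muscles. No library overlapped, and the log2 fold change was 0.33 ± 0.14 with an adjusted p of 0.7135 in edgeR's quasi-likelihood test. With any 1 library left out the unadjusted p of Ldha was no longer under 0.05, while the difference stayed between 0.28 and 0.39. Ldhb was at 1501 and 1571 against 1281 and 1359 CPM, also without overlap (0.22 ± 0.15). The log2 ratio Ldha/Ldhb overlapped, at -0.46 and -0.64 against -0.58 and -0.75 (difference 0.11; exact permutation test, two-sided, p = 0.667).

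Of the lactate carriers, Slc16a1 (MCT1) was at 101, 106, 110.1 and 82.5 CPM, with the mCDC libraries between the vehicle libraries (0.11 ± 0.16). Slc16a3 (MCT4), the exporter known from fast fibres, was at 61.6, 8.95, 35.8 and 16.9 CPM. The mCDC libraries were the highest and the lowest of the 4 and differed 6.88-fold, so the mean difference of 0.42 ± 0.71 on the log2 scale is far within the spread. Leaving out mCDC replicate 1 gave -1.55 and leaving out mCDC replicate 2 gave 1.22, and the gene was called in both fits, lower in the first and higher in the second, so that the sign depends on which mCDC library is kept.

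Of the 4 genes of glycogen breakdown 1 had a log2 fold change above 0, the median was -0.14, and in all 4 the groups overlapped. Pygm, the muscle glycogen phosphorylase, was at 2282, 1720, 1872 and 1742 CPM (0.15 ± 0.19). The subunits of phosphorylase kinase, which switches Pygm on, were on average lower in mCDC muscles, by differences close to or within their errors. Phka1 (a regulatory subunit) was at 120.4, 94.1, 118 and 107 CPM (-0.066 ± 0.16). Phkb (the other large regulatory subunit) was at 84.3, 59.6, 96.6 and 70.8 CPM (-0.22 ± 0.21). Phkg1 (the catalytic subunit of muscle) was at 84.3, 41.0, 81.0 and 80.4 CPM, so that mCDC replicate 2 alone was low (-0.36 ± 0.29). All 4 genes of the step were lowest in mCDC replicate 2. Without mCDC replicate 1, Phkg1 was called lower (-0.97, adjusted p = 0.05359 in edgeR's quasi-likelihood test), and without mCDC replicate 2 its log2 fold change was 0.063.

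Among the genes of glycogen making and targeting, Gys1, the muscle glycogen synthase, was at 1103, 1018, 1108 and 853 CPM (0.11 ± 0.17). Gbe1, the branching enzyme, was at 162, 156, 194 and 143 CPM (-0.080 ± 0.17). Gyg, glycogenin, the protein primer of the granule, was at 494, 451, 464 and 411 CPM (0.11 ± 0.14). Every one of these sets overlapped between groups. Ugp2, which makes the activated sugar UDP-glucose, was at 737, 847, 759 and 609 CPM (0.21 ± 0.16). Ppp1r3c, which brings protein phosphatase 1 to glycogen, was at 262, 239.8, 257 and 177 CPM (0.21 ± 0.19). In all 5 genes vehicle replicate 2 was the lowest library, and the median log2 fold change of the step was 0.11. The log2 ratio Gys1/Pygm did not separate the groups, at -1.05 and -0.76 against -0.76 and -1.03 (difference -0.0097; exact permutation test, two-sided, p = 0.667).

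The 3 genes of fructose bisphosphate control are, with Slc2a1, the 4 members with the lowest levels per kilobase, and edgeR's quasi-likelihood test called none. Pfkfb1 was called lower by DESeq2, by the likelihood ratio test and with scaling by total counts, and Fbp2 was called higher by the likelihood ratio test and with the replicate number as a block. Pfkfb1 and Pfkfb3 make and remove the bisphosphate that activates phosphofructokinase. Pfkfb1 was at 15.4 and 8.77 CPM in mCDC muscles and 16.6 and 20.4 CPM in vehicle muscles, and Pfkfb3 at 11.3 and 13.1 against 13.3 and 17.9 CPM. These were the 2 members whose mCDC libraries both lay below both vehicle libraries. The log2 fold change was -0.60 ± 0.26 for Pfkfb1 (adjusted p = 0.7135) and -0.35 ± 0.20 for Pfkfb3 (adjusted p = 0.747) in edgeR's quasi-likelihood test. For Pfkfb1 the gap between group means was smaller than the range within the mCDC group, as it was for Pfkfb3 within the vehicle group, and the ratio Pfkfb1/Pfkfb3 overlapped (log2 0.44 and -0.57 against 0.32 and 0.19). Fbp2, the muscle fructose bisphosphatase of the reverse direction, was at 7.54, 4.11, 4.197 and 2.84 CPM. Its mean was 1.65-fold higher in mCDC muscles but the groups overlapped (0.73 ± 0.33, adjusted p = 0.7239 in edgeR's quasi-likelihood test). Leaving out mCDC replicate 1 gave 0.22 for Fbp2 and -1.07 for Pfkfb1, which was then called lower. Without mCDC replicate 2, Fbp2 was called higher (1.09), as it was without vehicle replicate 1 (1.03), and Pfkfb1 was at -0.26. Pfkfb3 was at -0.12 without vehicle replicate 2 and at -0.55 without vehicle replicate 1.

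In the pyruvate dehydrogenase complex, Pdha1, the alpha subunit of the first enzyme, was at 770.0, 771, 779 and 694 CPM (0.065 ± 0.14), with mCDC libraries between the vehicle libraries. Pdhb, its beta subunit, was at 312 and 338 against 294 and 280 CPM (0.18 ± 0.13). Dlat, the acetyl carrier, was at 238 and 245 against 223 and 193 CPM (0.21 ± 0.14). Pdhb and Dlat did not overlap between groups, and none of the 3 was called. Of the 31-base words of Pdhb, 41.9% are shared with other genes.

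Counted over all steps, 27 of 34 members (79.4%) had a log2 fold change above 0, against 48.4% of all genes tested. With scaling by total counts it was 24 members, and the median of all genes was then -0.088. With TMM scaling the members' median was 0.15 and that of all genes -0.0093, with quartiles of all genes at -0.21 and 0.14. Both mCDC libraries lay above both vehicle libraries for 11 of 34 members (32.4%), against 19.2% of all genes tested. They lay below for 2 of 34 (5.88%), against 19.5%. In 10 of 34 members the group means differed by more than the larger range within a group, against 25.2% of all genes, a share near that background. The members were chosen as a pathway with earlier results of these data known, so these counts are descriptions. When vehicle replicate 2 was left out, 20 of 34 members were above 0 and their median was 0.077, against 0.013 for all genes. The share of all genes above 0 in that fit and with total counts is not given here. Without each of the other libraries in turn the members' median stayed between 0.13 and 0.18.

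Vehicle replicate 2 also had the highest summed level of several markers of cells other than fibres. Fibroblast markers summed to 369 and 324 CPM in mCDC muscles and 367 and 604 CPM in vehicle muscles (all 6 of 6 with a log2 fold change below 0, 3 called lower). Red cell markers summed to 427 and 441 against 382 and 697 CPM (6 of 6 tested below 0, 1 called lower). Macrophage markers summed to 27.2 and 35.3 against 23.4 and 44.1 CPM, with 2 of 6 above 0, 1 called higher (Cd68) and 1 called lower (Csf1r). Nerve markers summed to 27.6 and 31.6 against 27.4 and 46.1 CPM (4 of 4 below 0, 0 called). Adipocyte markers summed to 149 and 147 against 182 and 216 CPM (5 of 5 below 0, 0 called), but Fabp4, which endothelium also makes, carried the sum in vehicle replicate 2 (199.9 CPM). Adipoq (1.49), Plin1 (0.728), Cfd (13.3) and Lep (0.327) were at their lowest CPM in that library and at their highest in vehicle replicate 1. Smooth muscle markers ranged over 171, 159, 135 and 169 CPM (3 of 4 above 0, 1 called lower), and regenerating fibre markers over 515, 524, 569 and 517 CPM (2 of 5 above 0, 1 called higher). The part of these cells in the members' shift was not tested.

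**Figure D3:**
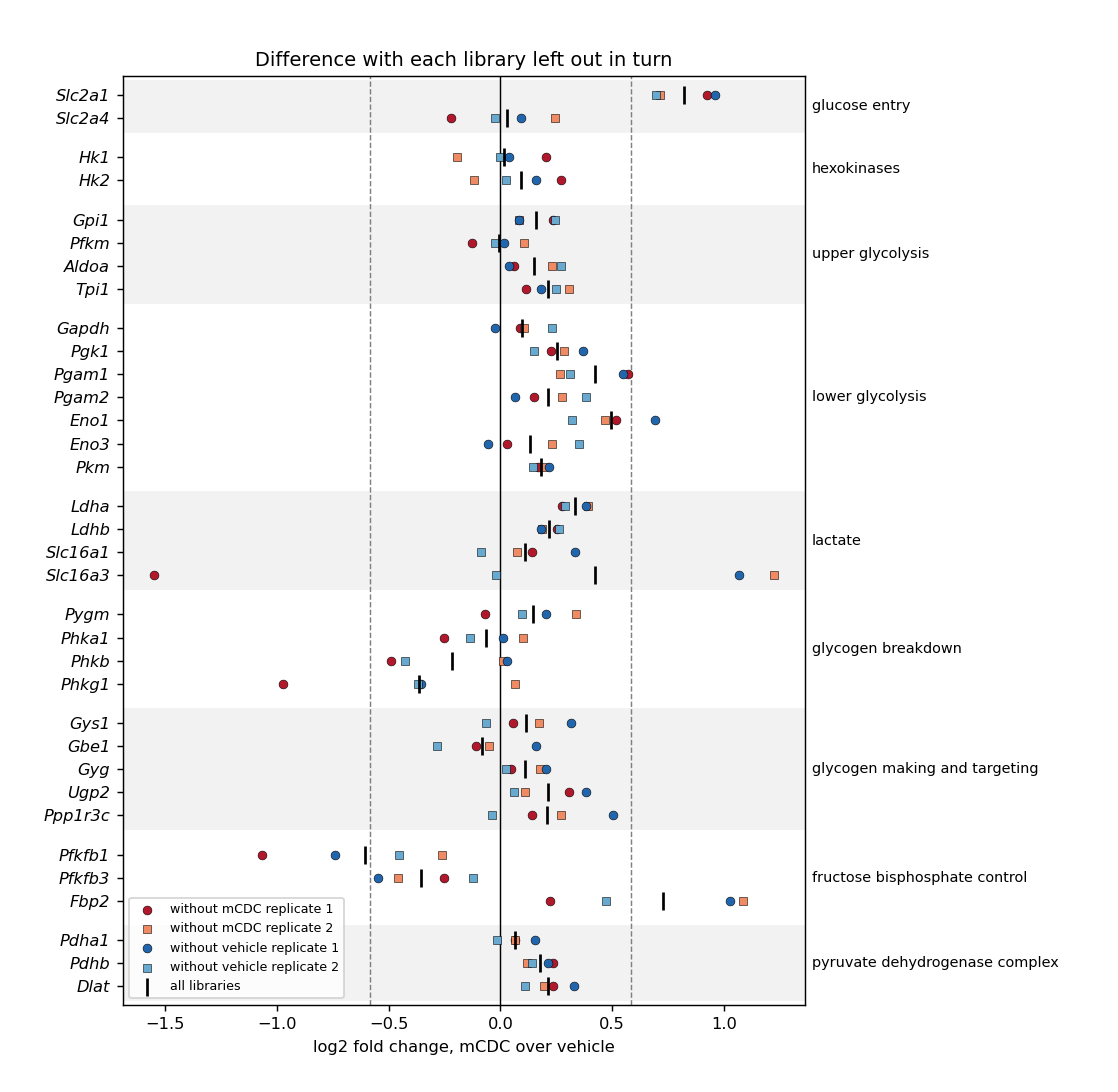
Log2 fold change of each member, mCDC over vehicle, with each library left out in turn (coloured symbols, named by the library removed) and with all libraries (black bars); dashed lines mark 1.5-fold. Slc2a1 stays right of the dashed line in every fit, between 0.70 and 0.96, whereas Slc16a3 runs from -1.55 to 1.22.

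The members whose replicates differed most shared the order of the mCDC libraries. In 4 members (11.8%, against 23.8% of all genes) the replicates of a group differed by over 1.5-fold: Slc16a3, Phkg1, Fbp2 and Pfkfb1. For each of them mCDC replicate 1 was above mCDC replicate 2, as it was for 21 of all 34 members. The same order was seen in 7 of 11 fast-fibre markers and 9 of 9 slow-fibre markers. The share of all genes in that order is not given here, so these counts have no background to be read against. The widest gaps between the mCDC libraries among fast-fibre markers, singled out after their values were seen, were in 4 genes. Myh4, the myosin of the fastest fibres, was at 2096, 47.5, 163 and 411 CPM, and the calcium buffer Pvalb was at 648, 16.8, 161 and 109 CPM. Actn3, the alpha-actinin of fast fibres, was at 932, 227, 471 and 341 CPM, and Myh1 at 4162, 603, 4490 and 1661 CPM. Myh2, of the less fast fibres, was instead lowest in mCDC replicate 1, at 6749, 9617, 7617 and 10859 CPM. The fast troponin genes Tnnt3, Tnni2 and Tnnc2 were also lower in mCDC replicate 1 than in mCDC replicate 2, by less (Tnnt3 at 5709 and 5930 CPM). Over the fast-fibre list, 8 of 11 were above 0 with a median of 0.031 and 0 called, and over the slow-fibre list 7 of 9 with a median of 0.090 and 0 called. Both mCDC libraries lay above both vehicle libraries for 5 of 9 slow-fibre markers (Myl2, Myl3, Tnnt1, Tnni1 and Tnnc1; 55.6%) and for 0 of 11 fast-fibre markers, against 19.2% of all genes and 32.4% of the members. Summed fast-fibre levels lay between 33327 and 41577 CPM and summed slow-fibre levels between 81365 and 99073 CPM, and the groups overlapped in both. The part of fibre type in the members' differences and in their spread was not tested.

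**Figure D4:**
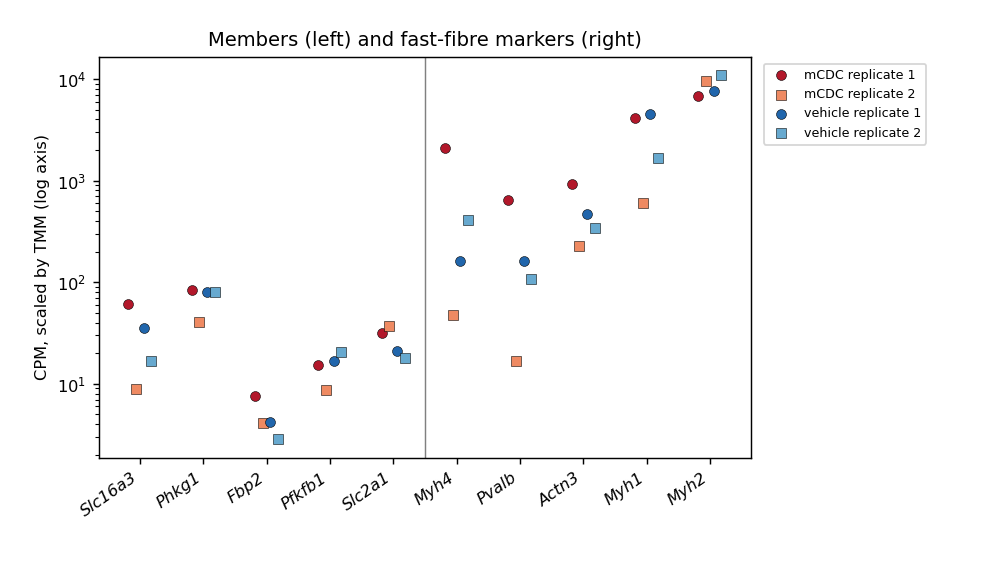
CPM on a log axis of 5 members (left) and 5 fast-fibre markers (right) in each library; circles are replicate 1, squares replicate 2, red mCDC and blue vehicle. mCDC replicate 2 is the lowest library for Myh4 (47.5 CPM), Pvalb (16.8), Actn3 and Myh1 and also for Slc16a3 (8.95), Phkg1 and Pfkfb1. It is the highest for Slc2a1 (37.0). Myh2 is instead lowest in mCDC replicate 1 (6749 CPM) and Fbp2 in vehicle replicate 2 (2.84). The markers drawn are 5 of a list of 11, and all but Myh2 were singled out after their values were seen. Over that list 7 of 11 were higher in mCDC replicate 1 than in mCDC replicate 2. Tnnt3, Tnni2 and Tnnc2, not drawn, were not.

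Of 83 further genes of the pathway in a list fixed for this comparison, 82 were in the table and 68 were tested. 33 of the 68 had a log2 fold change above 0, with a median of -0.010, close to that of all genes. 1 was called higher (1.47%) and 1 lower (1.47%), against 1.25% and 2.7% of all genes. Pdk4, a kinase that switches the pyruvate dehydrogenase complex off, was at 1583 and 1057 CPM in mCDC muscles and 769 and 894 CPM in vehicle muscles, without overlap. It was higher by 0.67 ± 0.21 on the log2 scale (adjusted p = 0.6428 in edgeR's quasi-likelihood test). Pdpr, a regulatory subunit of the phosphatase that switches the complex back on, was at 2.27 and 2.101 against 9.84 and 5.09 CPM, with a log2 fold change of -1.73 ± 0.34 (adjusted p = 0.462 in edgeR's quasi-likelihood test). The vehicle libraries of Pdpr differed between themselves but both lay above both mCDC libraries. The other kinases and phosphatases of the complex without a p under 0.05 overlapped between groups: the log2 fold change was -0.14 for Pdk1, 0.056 for Pdk2, -0.26 for Pdk3 and 0.13 for Pdp2.

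At an unadjusted p under 0.05 in edgeR's quasi-likelihood test, 2 of the 68 genes were higher and 3 lower, shares close to the 2.85% and 4.09% of all genes. Besides Pdk4 and Pdpr these were 3 genes that changed by less than 1.5-fold. Pgm5, a relative of phosphoglucomutase found at cell junctions, was at 88.0 and 96.3 against 129 and 112 CPM (-0.39 ± 0.14). The catalytic subunit of the same phosphatase, Pdp1, was at 37.0 and 33.8 against 50.2 and 41.0 CPM (-0.36 ± 0.16). Nhlrc1, the ubiquitin ligase malin that acts on glycogen metabolism, was at 8.90 and 8.68 against 6.94 and 5.53 CPM (0.49 ± 0.21). Hif1a, the hypoxia-regulated factor that binds the response element searched above, was at 19.2, 16.5, 24.95 and 15.8 CPM and overlapped (-0.19 ± 0.23). Txnip, which limits glucose uptake, was at 486, 348, 323 and 853 CPM, with vehicle replicate 2 alone high.

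**Figure D5:**
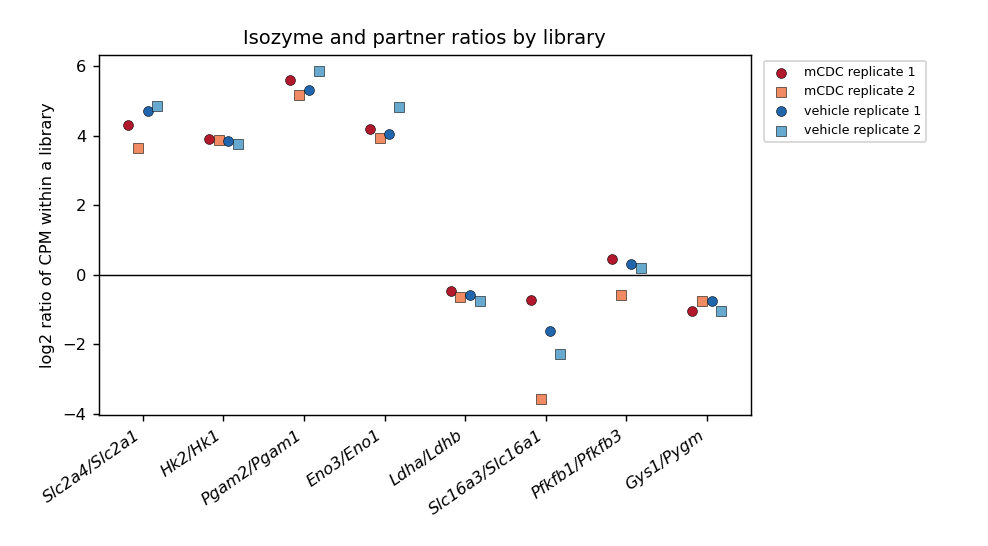
Log2 ratio of CPM between 8 pairs of members in each library, with colours and symbols as for the levels (red mCDC, blue vehicle). Groups are apart for Slc2a4/Slc2a1, with mCDC lower (4.31 and 3.63 against 4.71 and 4.85), and narrowly for Hk2/Hk1; the other 6 pairs overlap, Slc16a3/Slc16a1 most widely.

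Counts of some members could hold reads of other genes. The share of 31-base words found in transcripts of other genes was over 30% for 8 members: Pgk1 (68.3%), Gapdh (62.6%), Eno1, Pgam1, Pdhb, Pkm (34.8%), Ldhb (33.0%) and Gpi1 (31.4%). It was 0% for 17 members, among them Slc2a1, Pfkfb1, Fbp2 and Slc16a3. Words were compared as transcribed, so sequence shared with a gene on the opposite strand does not enter these shares. The exons of Aldoa, Gys1, Pdha1, Pfkm, Phkg1 and Tpi1 overlap those of a listed gene on the opposite strand. Whether the counting used strand is not given in the sources used here.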

How the data were processed

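Soleus RNA-seq libraries of 2 mCDC and 2 vehicle *mdx* muscles were analysed from the table the authors deposited, which holds RSEM expected counts per gene symbol without normalization (Bowtie2 2.1.0, RSEM 1.2.15 and build mm10, per the labels' processing notes). Single-end reads were mapped to a UCSC transcript set. Replicates were not pooled. The labels and the study's methods name different library kits. Totals were 27187425, 22481391, 25927227 and 26321898 expected counts (mCDC 1 and 2, vehicle 1 and 2).

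The test took these values as whole numbers, after rounding, and ran over all genes in edgeR 4.0.16 in R 4.3.3: filterByExpr, TMM scaling, the quasi-likelihood F-test (legacy = FALSE) with a prior count of 2, and Benjamini-Hochberg adjustment over 13652 genes. Standard errors follow from each log2 fold change and its F value. Ratios within a library were compared by exact permutation tests, two-sided, over 8 pairs, each at the smallest possible p of 0.333 or above, so no adjustment was applied. Groups came from the treatment label. All 34 members are named, and further genes come from fixed lists of pathway genes and cell markers. The members and lists were chosen with earlier results of these data known. Transcript lengths are medians of protein-coding transcripts of the GENCODE vM21 basic set; shared words and overlaps used the same annotation of GRCm38, and promoter windows came from RefSeq GRCm38.p6. Alternatives were other scalings, filters, tests (DESeq2 1.42.0 and others), prior counts, a length and GC correction, the replicate number as a block, and leaving out each library in turn, where a lone library is assumed to vary like the other group. The procedure was tested on simulated data for mCDC against vehicle (13478 genes, 200 changed), where 87% of 2-fold and 96.6% of 4-fold changes were called, with 2.55% of unchanged genes. Each gene was drawn independently there, without differences between libraries that many genes share. No change smaller than 2-fold was simulated, so these shares do not apply to the smaller differences of the members.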

Additional observations from a re-analysis of the deposited data

How the results depend on the processing

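Slc2a1 stayed called higher under each alternative tried. Over the members, RLE size factors, both filters on low counts, the legacy test, the other prior counts and the length and GC correction left the counts called at 1 higher and 0 lower. With scaling by total counts 1 member was called lower (Pfkfb1), against 3.66% of all genes, and the members' median log2 fold change was 0.067. That scaling moves all genes alike: their median was -0.088, and the gap between both medians was 0.155, against 0.157 with TMM. That gap was 0.107 with the length and GC correction and ran from 0.064 (without vehicle replicate 2) to 0.191 (without mCDC replicate 2) with 1 library left out. DESeq2 called 1 lower (Pfkfb1), against 1.49% of the genes it tested, and gave 1 an adjusted p under 0.05 (Slc2a1). The likelihood ratio test of edgeR called 2 higher (Slc2a1, Fbp2) and 1 lower (Pfkfb1), against 1.42% and 3.14% of all genes. It also gave 1 an adjusted p under 0.05 (Slc2a1). The share of all genes with an adjusted p under 0.05 in these tests is not given here. The cause of the differences between tests was not tested. Members whose groups did not overlap numbered 12 higher and 2 lower with RLE size factors (19.4% and 19.3% of all genes), and 9 and 3 with total counts (10.7% and 27.9%), counts added after seeing the data, as was edgeR's default prior count.

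The unadjusted p of Ldha was no longer under 0.05 with RLE size factors, total counts, the filter of 10 counts, the likelihood ratio test and the length and GC correction, and that of Pgam1 with total counts, the length and GC correction and the replicate block. Besides the fits without 1 library given with Slc16a3, Phkg1, Fbp2 and Pfkfb1, other members gained one: Dlat with the length and GC correction (0.33), Fbp2 with the likelihood ratio test and the block, Pfkfb1 (lower) with total counts, DESeq2 and the likelihood ratio test, and Ppp1r3c (0.50) and Pfkfb3 (-0.55) without vehicle replicate 1.

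The labels do not say whether libraries with the same replicate number share an origin. The deviations of same-numbered libraries had a correlation of -0.039 over 13652 genes. With the replicate number as a block, 2 members were called higher (Slc2a1 and Fbp2), Slc16a3 was at -0.024, and of all genes 171 were called higher and 306 lower, against 171 and 369 without it.

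The shift of all genes under total counts took 3 values near 0 below it, -0.049 for Slc2a4, -0.062 for Hk1 and -0.013 for Pdha1. The length and GC correction gave -0.022 for Slc2a4 and 0.12 for Phka1, and DESeq2 gave 0.0046 for Pfkm. Leaving out 1 library gave 1 to 3 members called higher, 0 to 3 lower and a median of 0.077 to 0.18. Over all genes the calls ran from 112 to 397 higher and from 236 to 827 lower, against 171 and 369, with the fewest without mCDC replicate 2, the most higher calls without mCDC replicate 1 and the most lower calls without vehicle replicate 1. The log2 fold changes that turned sign in these fits ran from -0.22 to 0.25 for Slc2a4, -0.20 to 0.20 for Hk1, -0.12 to 0.27 for Hk2, -0.13 to 0.11 for Pfkm, -0.026 to 0.23 for Gapdh, -0.057 to 0.35 for Eno3, -0.086 to 0.34 for Slc16a1, -1.55 to 1.22 for Slc16a3, -0.070 to 0.34 for Pygm, -0.25 to 0.10 for Phka1, -0.49 to 0.028 for Phkb, -0.97 to 0.063 for Phkg1, -0.064 to 0.32 for Gys1, -0.29 to 0.16 for Gbe1, -0.037 to 0.50 for Ppp1r3c and -0.017 to 0.16 for Pdha1. Values not yet given that kept their sign but moved by over 1.5 times ran from 0.037 to 0.27 for Aldoa, 0.083 to 0.25 for Gpi1, 0.11 to 0.31 for Tpi1, 0.15 to 0.37 for Pgk1, 0.067 to 0.38 for Pgam2, 0.026 to 0.21 for Gyg, 0.059 to 0.38 for Ugp2 and 0.11 to 0.33 for Dlat. Of the differences in log2 ratio between members, some kept their sign (-1.15 to -0.47 for Slc2a4/Slc2a1, 0.029 to 0.12 for Hk2/Hk1, 0.024 to 0.21 for Ldha/Ldhb), and those that turned ran from -0.47 to 0.078 for Pgam2/Pgam1, -0.75 to 0.029 for Eno3/Eno1, -1.61 to 1.23 for Slc16a3/Slc16a1, -0.82 to 0.19 for Pfkfb1/Pfkfb3 and -0.16 to 0.14 for Gys1/Pygm. With 2 libraries per group, the spread between libraries limits what can be resolved.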
